A study of Mus musculus with 6 samples.

Results

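The 7 complement genes *C3*, *C4b*, *C1ra*, *Cfb*, *Serping1*, *Cd55* and *Cd59a* were followed in primary cultures of endothelial cells from the stria vascularis, the vascularised tissue of the cochlear lateral wall. They were taken by gene symbol from the deposited count table and make up 7 of its 24421 genes. All 7 passed the filter on low counts, which left 13479 genes to be tested. RNA of 3 untreated *Nhe6*-knockout cultures and of 3 untreated wildtype cultures was sequenced, each as 1 library. *Nhe6*-knockout mice carry a targeted disruption of *Nhe6*, and wildtype mice carry no engineered allele. For every library the labels give C57BL/6N as the strain background, while the methods of the study describe backcrossing to C57bl6/j. Tissue came from mice on postnatal days 10 to 12, and by the methods of the study it held the stria vascularis with the spiral ligament. Cells from several mice of 1 genotype were pooled in each culture, and the cultured cells were purified by cell sorting.

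Complement is a cascade of blood and tissue proteins that marks surfaces for removal. The classical pathway starts when C1q binds a target and its proteases C1r and C1s cleave C4 and C2, the lectin pathway reaches the same step through sugar-binding proteins and MASP proteases, and the alternative pathway amplifies the reaction through factor B. All of them converge on C3, whose fragments tag surfaces and attract leukocytes, and on a terminal pore. Host cells are protected by soluble inhibitors such as C1 inhibitor and clusterin and by membrane inhibitors such as CD55 and CD59, and vascular cells are among those that carry them.

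The libraries held from 25587097 to 29126232 reads assigned to genes. Expression is given in normalized counts, read counts scaled by edgeR's TMM method to the mean library size. Values per culture are in the order of replicates 1, 2 and 3 throughout, with KO for *Nhe6*-knockout and WT for wildtype. The label of endothelial cells was met in part. A mean of 100 or more normalized counts was reached by 6 of 16 listed endothelial markers, *Cldn5* and *Sox17* had 0 reads in each library and *Pecam1* had at most 8 reads, while all 15 listed fibroblast markers reached that mean. WT replicate 2 lay apart on the first principal component, at 112 against -30.4 to -6.49 for the other 5 libraries, so the tests of the 7 genes are given with and without it. KO replicates 1 and 2 were the most similar pair, with a chi-square statistic of 4.90 per degree of freedom against 90.0 or more for any other pair of libraries. The 12 listed cell cycle genes summed to 7604 to 13490 normalized counts in KO and to 2492 to 3710 in WT libraries, and the part of growth state in the results was not tested.

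*C3*, *C4b* and *Cfb* lie on chromosome 17 of GRCm38, on the minus strand. *C4b* (34728380 to 34743882) and *Cfb* (34856374 to 34862518) lie 112 kb apart in the major histocompatibility complex, with *C2* only 85 bases upstream of *Cfb*, and *C3* (57203970 to 57228136) lies far from them. *C1ra* lies on chromosome 6 from 124512405 to 124523443, *Serping1* and *Cd59a* on chromosome 2 from 84765387 to 84775444 and from 104095801 to 104115354, and *Cd55* on chromosome 1 from 130439027 to 130462744. Several of them have close copies, which bears on what could be counted. Of the 75-base windows in the annotated transcripts of *C1ra*, 42.4% also occurred in *C1rb* or *Gm18840*, and 22.7% of those of *C4b* occurred in *C4a*. The share was 6.13% for *Cd55*, 1.66% for *Cd59a* and 0% for *C3* and *Serping1*. For *Cfb*, 69.9% of the windows also belonged to *Gm20547*, a transcript model that runs over the same exons and is not a row of the deposited table. Reads were counted only where they were placed at 1 site, so the counts of *C1ra* and *C4b* leave out reads that they share with their copies. The copies themselves had few counts, at most 6 reads for *C1rb*, 39 for *C4a*, 22 for *Cd59b* and 0 for *Cd55b* in any library.

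RefSeq promoters of GRCm38.p6 were at hand for 4 of the 7 genes, *C3*, *C1ra*, *Cd55* and *Cd59a*. Printed are 3 of them, each as the 250 bases before the transcription start: those of *Cd55* and *Cd59a*, the pair whose counts were both highest by far in the same library, and that of *C3*, whose counts varied least. They lie at chr1:130462745-130462994 (minus strand), chr2:104095551-104095800 (plus strand) and chr17:57228137-57228386 (minus strand). Capitals mark matches to 6 motifs that were searched on both strands.
Cd55: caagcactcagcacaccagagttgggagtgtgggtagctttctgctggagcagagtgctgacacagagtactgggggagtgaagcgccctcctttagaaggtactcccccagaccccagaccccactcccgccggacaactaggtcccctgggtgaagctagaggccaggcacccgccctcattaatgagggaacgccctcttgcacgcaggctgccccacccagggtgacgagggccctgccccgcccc
Cd59a: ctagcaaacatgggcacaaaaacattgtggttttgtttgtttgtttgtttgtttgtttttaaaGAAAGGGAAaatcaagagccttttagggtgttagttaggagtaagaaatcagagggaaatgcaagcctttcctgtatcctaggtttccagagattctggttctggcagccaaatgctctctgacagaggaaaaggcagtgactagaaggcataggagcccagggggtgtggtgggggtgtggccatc
C3: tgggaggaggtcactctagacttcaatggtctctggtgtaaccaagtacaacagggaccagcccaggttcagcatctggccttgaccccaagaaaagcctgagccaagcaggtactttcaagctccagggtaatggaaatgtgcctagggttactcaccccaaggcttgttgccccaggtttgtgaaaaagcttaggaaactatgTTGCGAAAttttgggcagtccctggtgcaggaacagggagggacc

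The *C3* window held 1 match, TTGCGAAA, 45 to 38 bases before the start, to the C/EBP motif TTGCNNAA. In *Cd59a* the match was GAAAGGGAA, 187 to 179 bases before the start, to the interferon response motif GAAANNGAA. No match to any of the 6 motifs was found in the windows of *Cd55* and *C1ra*. For *C1ra* the RefSeq start lies inside the gene as positioned above, so most of its window (124512371 to 124512620) overlaps that gene. Among 32851 promoters of the same length, 9.56% held the C/EBP motif, 7.13% the interferon response motif, 7.02% the gamma-activated site TTCNNNGAA, 7.25% the kappa-B consensus, 6.75% the AP-1 motif TGANTCA and 12.4% TATAAA. These matches are descriptions of the letters only. The *Cd55* window was richer in G and C (64.0%) than that of *C3* (52.0%) or *Cd59a* (44.8%), with a median of 52.4% over all promoters.

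Levels of different genes were set side by side per exon length, as TMM-normalized values on the RPKM scale (reads per exon length and library size). On this scale *Serping1*, which encodes the C1 inhibitor, had the highest level of the 7 genes in both genotypes, 37.6 ± 2.43 in KO against 96.5 ± 30.2 in WT cells (SD, n = 3 each). *C1ra*, a protease of the C1 complex, had 22.1 ± 4.02 in KO and 19.5 ± 12.3 in WT cells (SD, n = 3 each), the next level in KO cells. In KO cells the next levels were 3.26 ± 0.195 for *C4b*, 2.64 ± 0.774 for *Cfb* and 1.73 ± 0.407 for *C3* (SD, n = 3), an order in which neighbours overlapped within 1 SD. *Cd59a* and *Cd55* had the lowest levels there, 0.925 ± 0.358 and 0.263 ± 0.109 (SD, n = 3). In WT cells the order below *Serping1* could not be read from the means, since in WT replicate 2 *Cd59a* (27.5) and *Cd55* (10.4) were above *C1ra* (5.50). *Cd59a* (11.3 ± 14.1), *Cfb* (6.14 ± 2.10), *C4b* (4.07 ± 2.64) and *Cd55* (3.85 ± 5.71, each SD, n = 3) had overlapping spreads, and *C3* had 1.66 ± 0.311 (SD, n = 3). Some other complement genes had a higher mean over the 6 libraries than *Serping1* (67.1), while most of those listed had a lower one. *Colec12*, a scavenger receptor with a collectin domain, had 164 on average over the 6 libraries.

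**Figure D1:**
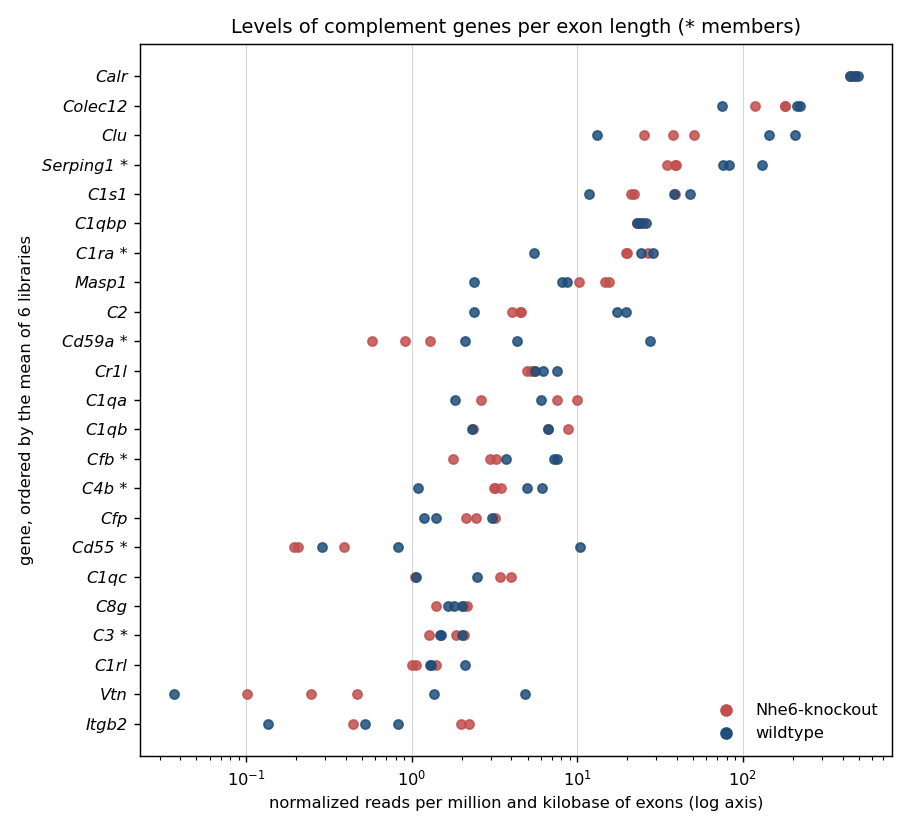
Levels of 23 complement genes with a mean of at least 1 on the TMM-normalized RPKM scale, on a log axis. Each point is 1 library, red for KO and blue for WT, stars mark the 7 genes described, and libraries at 0 (*C1qa*, *C1qb* and *C1qc* in WT replicate 2) have no point. *Serping1* is at most 39.2 in the KO and at least 75.9 in the WT libraries, while the points of *C3* mix.

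To find which of the 7 genes differed between the genotypes, counts were compared over all 13479 genes tested. *Serping1* and *Cfb* were lower in each KO than in each WT culture, 2.56-fold and 2.32-fold in the fit, and *Cd59a* was lower by 12.2-fold with a WT mean set largely by 1 culture. *C3*, *C4b*, *C1ra* and *Cd55* overlapped between the genotypes. None of the 7 passed the threshold of 0.05 after Benjamini-Hochberg adjustment (0 by edgeR's quasi-likelihood test), where 0.0668% of all genes tested passed. Before adjustment 4 of the 7 were under 0.05 by edgeR, all lower (*Cfb*, *Serping1*, *Cd55* and *Cd59a*). Of the 13479 genes, 769 were under 0.05 in the lower direction and 1596 in either direction. DESeq2's Wald test called these 4 genes, against 1.83% of all genes in the lower direction, and limma-voom called 0. Without WT replicate 2, edgeR's test called *Serping1* lower, 1 of the 7, against 1.26% of all genes in that direction. The median log2 fold change of the 7 genes was -1.22, and that of all genes tested was -0.016.

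The genotypes did not overlap for 3 of the 7 genes, *Cfb*, *Serping1* and *Cd59a*, each lower in KO cells, against 9.54% of all genes tested in that direction. Leaving out WT replicate 2 made the number 4, with *C4b* added, against 19.0%. With 3 cultures against 3, the smallest exact two-sided permutation p is 0.1. Whole cultures were sequenced, so fewer cells of a type and less RNA per cell cannot be told apart.

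**Figure D2:**
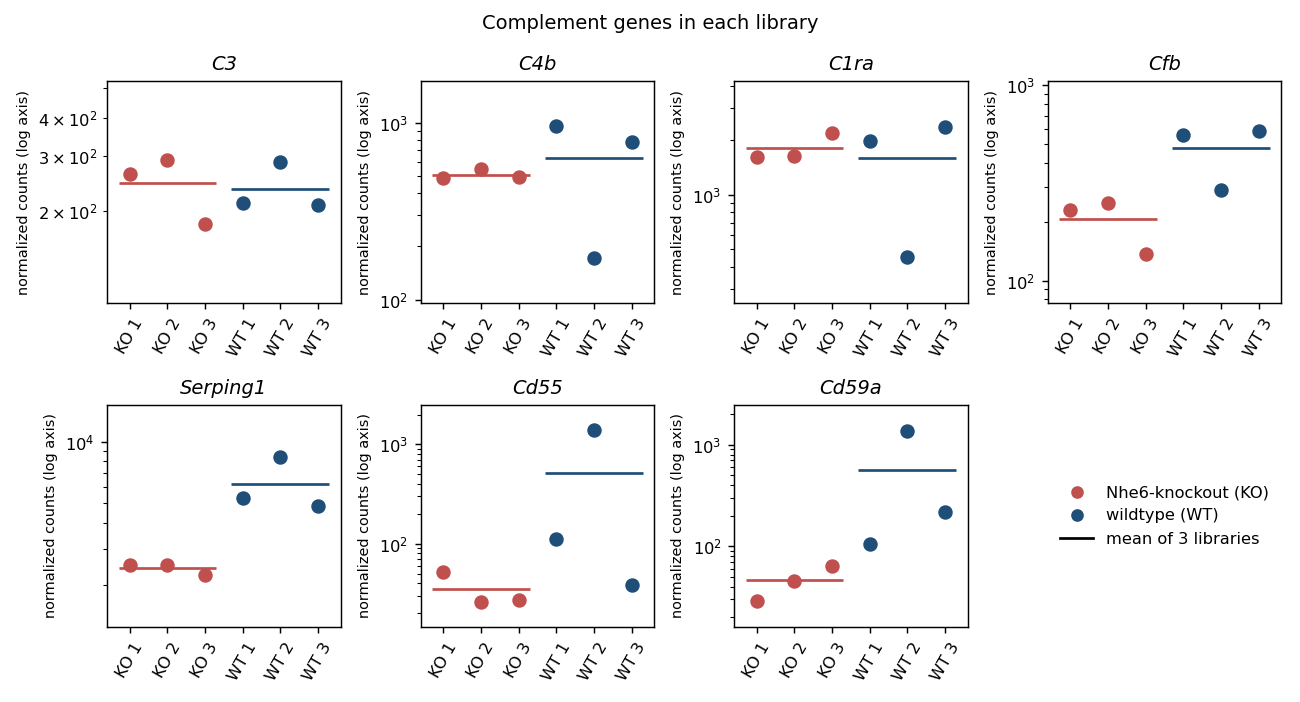
Normalized counts of the 7 genes in each library, on log axes that differ between panels. Points are single libraries (KO, *Nhe6*-knockout; WT, wildtype) and lines are means of 3. *Serping1*, *Cfb* and *Cd59a* separate the genotypes, and WT replicate 2 is the lowest library for *C4b* and *C1ra* and the highest for *Serping1*, *Cd55* and *Cd59a*.

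**Figure D3:**
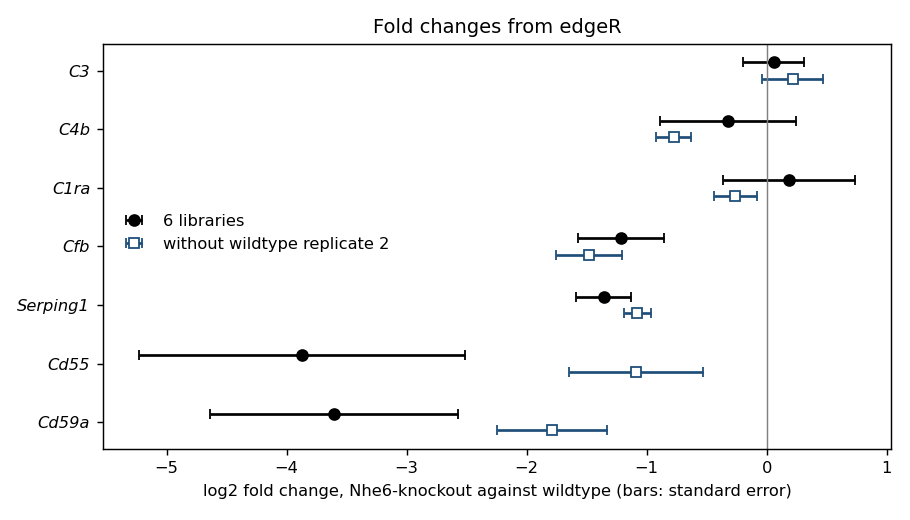
Log2 fold changes of KO against WT from edgeR, with standard errors as bars, from all 6 libraries (filled circles) and without WT replicate 2 (open squares). Without that library *Cd55* moves from -3.87 to -1.09 and *Cd59a* from -3.61 to -1.79, while *Serping1* moves from -1.36 to -1.08.

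*C3* encodes the component on which all pathways converge. Normalized counts were 263, 292 and 181 in the KO cultures and 212, 287 and 209 in the WT cultures. The WT libraries lay within the range of the KO libraries. The means were 245 ± 57.6 and 236 ± 44.0 (SD, n = 3 each), a log2 difference of 0.056 (standard error 0.26, adjusted p = 0.954 by edgeR). WT replicate 2 had 1.24 times the mean of the other 5 libraries, and without it KO minus WT was 0.22 (adjusted p = 0.698 by edgeR). In 5 of 14 alternatives the log2 fold change was below 0, down to -0.087, so no direction can be given for *C3*.

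*C4b* encodes complement component 4, which the C1 complex cleaves. It had 491, 546 and 497 normalized counts in the KO cultures, a narrow range, and 962, 171 and 782 in the WT cultures. WT replicates 1 and 3 were above each KO library and WT replicate 2 was below each. With all libraries KO minus WT was -0.32 on the log2 scale (standard error 0.57, adjusted p = 0.876 by edgeR). Leaving out WT replicate 2 gave -0.78 (standard error 0.15), 1.71-fold lower in KO cells, with an adjusted p of 0.0552 that did not pass the threshold.

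*C1ra* encodes the protease C1r, which activates C1s within the C1 complex. Normalized counts were 1615, 1639.8 and 2198 in the KO cultures and 1986, 452 and 2359 in the WT cultures. Apart from WT replicate 2, which had 0.230 times the mean of the other 5, the genotypes overlapped. On the log2 scale KO minus WT was 0.19 (standard error 0.55, adjusted p = 0.932 by edgeR), and -0.26 (standard error 0.18, adjusted p = 0.488) without that culture. *C1s1*, the gene of the C1s protease that lies 6.90 kb from *C1ra* on the other strand, had 1903, 1823 and 3344 in the KO and 3306, 1008 and 4133 in the WT cultures. It was thus also lowest in WT replicate 2, and its log2 fold change was -0.26 (adjusted p = 0.890 by edgeR), or -0.66 without that culture (adjusted p = 0.288).

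*Cfb* encodes factor B, the protease of the alternative pathway. Normalized counts were 230.4, 249.9 and 137 in the KO cultures and 559, 289.7 and 585 in the WT cultures. Each KO library was below each WT library, with the smallest gap to WT replicate 2. The means were 206 ± 60.2 and 478 ± 164 (SD, n = 3 each). On the log2 scale KO minus WT was -1.22 (standard error 0.36, adjusted p = 0.262 by edgeR and 0.0429 by DESeq2). Without WT replicate 2 it was -1.48 (standard error 0.27), 2.79-fold, with an adjusted p of 0.0519 by edgeR.

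*C2*, the gene next to *Cfb*, encodes the classical pathway protease that corresponds to factor B. It had 479, 487 and 431 normalized counts in the KO cultures and 1863, 253 and 2091 in the WT cultures. As for *C4b*, WT replicates 1 and 3 were above the KO libraries and WT replicate 2 was below them. Over all libraries the log2 fold change of *C2* was -1.59 (standard error 0.69, adjusted p = 0.443 by edgeR). In the fit without WT replicate 2 it was -2.09 (standard error 0.13, adjusted p = 0.00674), 4.26-fold lower in KO cells. The 3 genes share the KO and WT libraries, so their values are set side by side and the likeness between them was not tested.

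**Figure D4:**
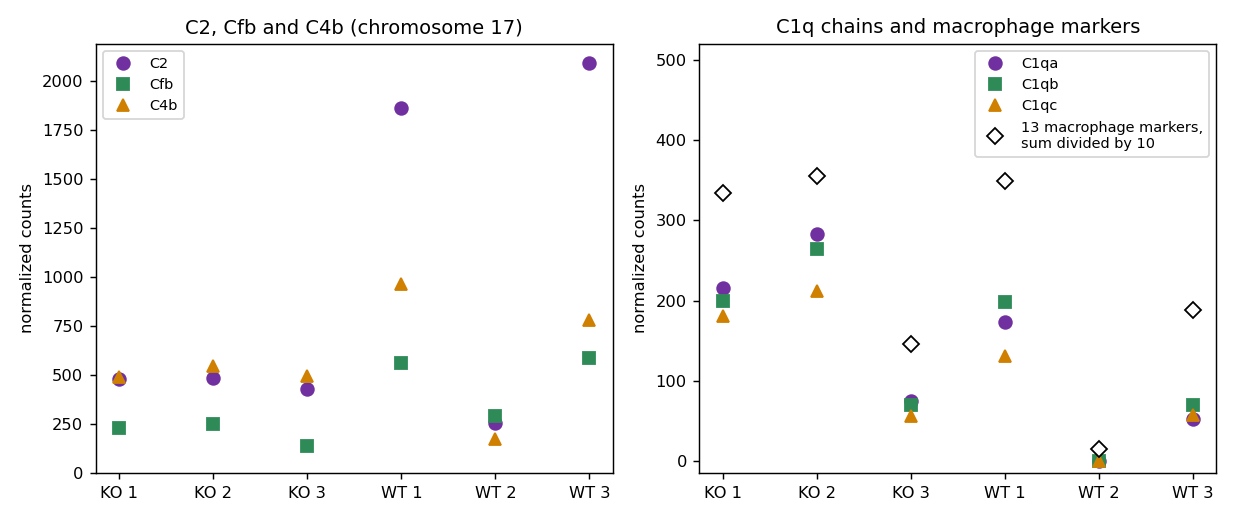
Normalized counts per library of *C2*, *Cfb* and *C4b* on the left, and of the C1q chains with the sum of 13 macrophage markers divided by 10 on the right (KO, *Nhe6*-knockout; WT, wildtype). *C2* is at least 1863 in WT replicates 1 and 3 and at most 487 in the other 4 libraries, and the C1q chains are at 0 in WT replicate 2, where the marker sum is 144.

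*Serping1* encodes the C1 inhibitor, a secreted serpin that inactivates C1r and C1s and also restrains kallikrein and with it the release of bradykinin. It had 2509.9, 2495 and 2232 normalized counts in the KO cultures and 5279, 8408 and 4860.4 in the WT cultures. The KO libraries lay close together, and the lowest WT library was far above the highest of them. The means were 2412 ± 156 and 6182 ± 1938 (SD, n = 3 each), with log2 fold change -1.36 (standard error 0.23, adjusted p = 0.0983 by edgeR). This did not pass the threshold with all 6 libraries. Without WT replicate 2, which was the highest, *Serping1* was still 2.11-fold lower in KO cells, and the adjusted p was 0.0217. By DESeq2 with all libraries the adjusted p was 3.2e-05, and over 14 alternatives it lay between 3.2e-05 and 0.471, with a log2 fold change from -1.51 to -1.08. With KO replicates 1 and 2, the most similar pair, summed, the adjusted p was 0.462 by edgeR.

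Among 7 other listed soluble regulators, 4 were tested, and edgeR called 0 of them with all libraries, as did DESeq2. Before adjustment 1 was under 0.05 by edgeR, against 1596 of all 13479 genes tested. *Clu*, the gene of clusterin, which keeps the terminal complex from inserting into membranes, had 2387, 3559 and 4805 normalized counts in the KO and 19485, 1236 and 13641 in the WT cultures. Here WT replicate 2 was the lowest of all libraries. Without it *Clu* was called lower in KO cells, 4.64-fold (adjusted p = 0.0325 by edgeR). *Vtn*, the gene of vitronectin, another inhibitor of the terminal complex, had 13.8, 26.0 and 5.68 against 270, 2.06 and 75.9, and its adjusted p without that culture was 0.0684. *C4bp*, which encodes a soluble inhibitor that binds C4, had at most 138 normalized counts in any library.

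*Cd55* encodes decay-accelerating factor, which breaks up the enzymes that cleave C3 on the cell surface. It had 52.0, 26.0 and 27.4 normalized counts in the KO cultures and 110.5, 1395 and 38.5 in the WT cultures. One library, WT replicate 2, had 27.4 times the mean of the other 5, and WT replicate 3 lay within the range of the KO libraries. The log2 fold change over all libraries was -3.87 (standard error 1.36, adjusted p = 0.345 by edgeR and 0.00891 by DESeq2). Without WT replicate 2 it was -1.09 (standard error 0.56, adjusted p = 0.350 by edgeR), 2.13-fold.

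*Cd59a* encodes CD59, which blocks the assembly of the terminal pore. Normalized counts were 28.7, 45.5 and 64.4 in the KO cultures and 105, 1374 and 215 in the WT cultures. Each WT library was above each KO library, and WT replicate 2 again stood out, at 15.0 times the mean of the other 5. On the log2 scale KO minus WT was -3.61 (standard error 1.03, adjusted p = 0.253 by edgeR and 0.00137 by DESeq2). It was -1.79 (standard error 0.46, adjusted p = 0.105 by edgeR) without WT replicate 2, 3.46-fold, so that the log2 fold changes of both membrane inhibitors shrank when this library was left out. In the same library 12 mural markers summed to 35280 normalized counts, against 16340 to 24460 in the other 5. Of the 12, 4 were highest there, *Acta2* with 16257 and *Tagln* with 5334 among them, while 5 were lowest there, *Pdgfrb* with 7785 among them. The 13 macrophage markers summed to 144, against 1453 to 3554. The 15 fibroblast markers summed to 449300 there, against 330900 to 390900, with 5 of them highest and 8 lowest in that library. The 16 endothelial markers summed to 15860, against 16720 to 25860, with 7 highest and 5 lowest. Large shifts in both directions lie within that sum. *Emcn*, its largest part in the other 5 libraries, had 409 there against 9897 to 18387, while *Cd34* had 4861.5 against at most 1464.5. The part of any of these cell types in the counts of *Cd55* and *Cd59a* was not tested.

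Other membrane regulators were measured beside this pair. *Cr1l*, which encodes Crry, the main rodent inhibitor of C3 cleavage on cells, had 1559.7, 1499 and 1425 normalized counts in the KO and 1777, 1587 and 2143 in the WT cultures, with log2 fold change -0.30 (standard error 0.14, adjusted p = 0.478 by edgeR). *Cd46* had at most 67.2 normalized counts in any library. *Susd4*, a regulator with complement control repeats, was higher in each KO than in each WT library, with 117, 112 and 114 against 58.7, 14.4 and 89.8 (log2 fold change 1.07, adjusted p = 0.554 by edgeR, and 0.62 with adjusted p = 0.304 without WT replicate 2).

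A list of 51 further complement genes was examined for comparison. Of these, 31 were tested, and 8 had 0 reads in all 6 libraries, among them *C8a*, *C8b* and *C9* of the terminal pore and *Mbl1* and *Mbl2* of the lectin pathway. A count of 0 allows up to 3 counts per library, so these transcripts were not detectable at this depth. *Hc*, the gene of component C5, had at most 23 reads in any library and *C6* at most 11. After adjustment edgeR called 0 of the 31, as did DESeq2 and limma-voom. Before adjustment 2 were under 0.05 by edgeR, both lower and with *Colec11* among them, against 769 of all 13479 genes tested in that direction. Without WT replicate 2 edgeR's test called 2 of 32, *C2* and *Clu*, both lower, against 1.26% of all genes in that direction. The median log2 fold change was 0.043 over the 31 genes and -0.049 over the 32 without WT replicate 2.

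Among these 31 genes the genotypes did not overlap for 3 that were lower, with *Cr1l* and *Colec11* among them, against 9.54% of all genes tested in the lower direction. They did not overlap for 2 that were higher in KO cells, *Masp1* and *Susd4*, against 10.4% in the higher direction. *Masp1*, a protease gene of the lectin pathway, had 4195, 4002 and 2769 normalized counts in the KO and 2357, 640.2 and 2177 in the WT cultures. In log2 units the change was 1.08 (standard error 0.48, adjusted p = 0.445 by edgeR), and 0.68 without WT replicate 2 (adjusted p = 0.142).

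**Figure D5:**
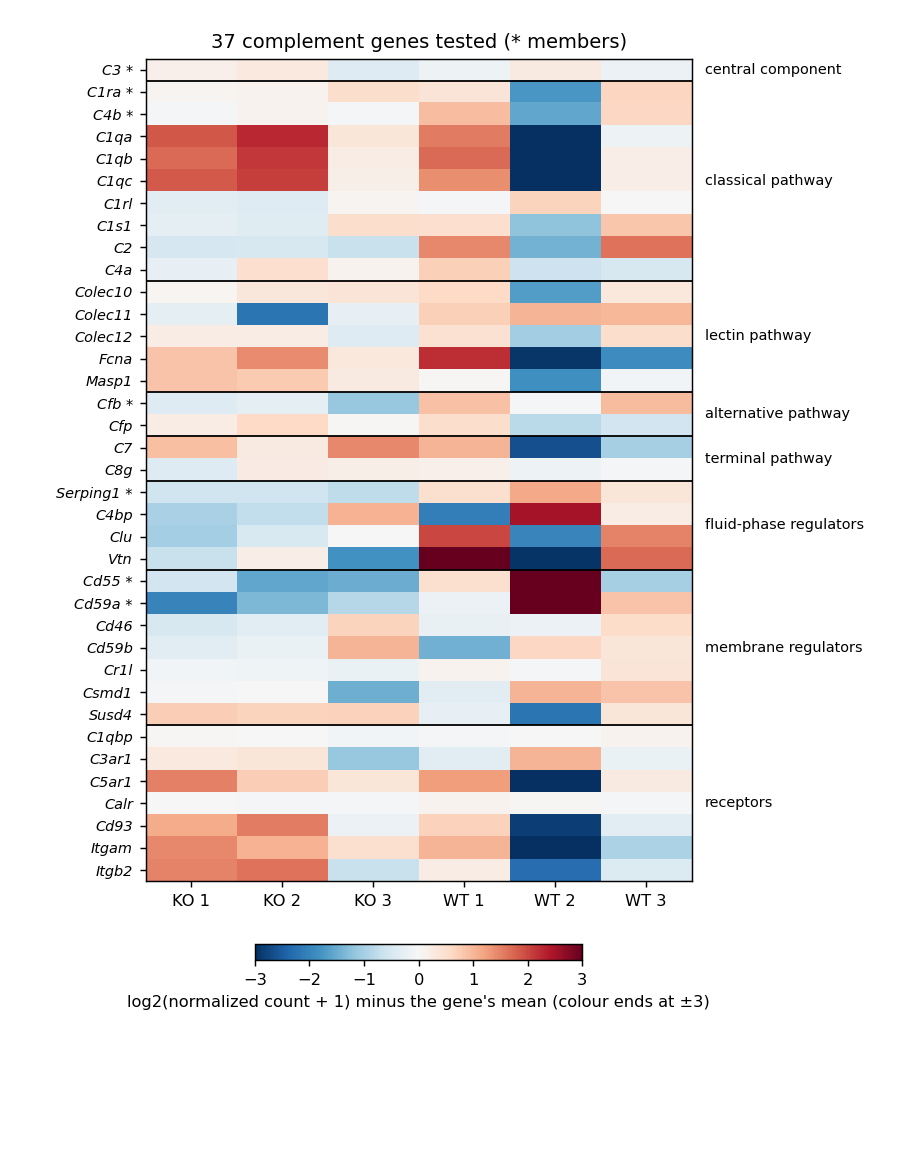
Heatmap of 37 complement genes tested, grouped by role, with stars on the 7 genes described. Colours are log2(normalized count + 1) minus the mean of each gene over the 6 libraries, and end at 3 in either direction. In WT replicate 2 the C1q chains, *Clu* and *Vtn* are blue and *Cd55* and *Cd59a* are red.

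The 3 chains of C1q, which macrophages are known to produce, had 0 reads in WT replicate 2. *C1qa* had 216, 283 and 74.8 normalized counts in the KO cultures, and 173 and 52.4 in WT replicates 1 and 3. *C1qb* and *C1qc* showed the same order of libraries within KO, and all 3 chains overlapped between the genotypes (adjusted p of 0.759, 0.829 and 0.773 by edgeR, and 0.610, 0.785 and 0.625 without WT replicate 2). The 13 macrophage markers summed to 3339, 3554 and 1453 in the KO cultures and to 3487, 144 and 1878 in the WT cultures, with 3 of the 13 at a mean of at least 100 and none at 0 in all libraries. Much of the sum was *Lyz2*, with 2122, 2258 and 817 in the KO and 1925, 29.9 and 1242 in the WT cultures. Several of the 13, *Adgre1*, *Ptprc* and *Tyrobp* among them, had 0 reads in WT replicate 2. *C3ar1*, a receptor for the C3a fragment, had 206 normalized counts in WT replicate 2, its highest value, whereas *C5ar1*, a receptor for C5a, had 0 there.

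Cytokine, interferon and NF-kappa-B signalling are textbook inducers of complement genes, and 24 of 27 listed genes of these routes were tested. Those below the filter were the listed cytokines *Il6*, *Il1b* and *Tnf*, with at most 19, 0 and 7 reads in any library. By edgeR and by limma-voom 0 were called. Before adjustment 6 were under 0.05 by edgeR, against 1596 of all 13479 genes tested (827 higher and 769 lower). Of the 6, 5 were higher in KO cells (*Tnfrsf1a*, *Stat2*, *Stat3* and *Irf9* among them) and 1 was lower (*Ifngr1*). DESeq2 called 3 of the 24, all higher and with *Stat2* and *Stat3* among them, against 2.85% of all genes in that direction. *Stat2*, which encodes a transcription factor of interferon signalling, had 3879, 4072 and 1349 normalized counts in the KO and 1202, 1166 and 1131 in the WT cultures. It did not overlap between the genotypes, and KO minus WT was 1.41 on the log2 scale (standard error 0.40, adjusted p = 0.249 by edgeR). *Stat3*, which acts downstream of interleukin 6, had 9322, 9289 and 9321 against 6656, 7229 and 6343, again without overlap (log2 fold change 0.47, adjusted p = 0.203 by edgeR). *Ifngr1*, a receptor chain for interferon gamma, had 1545, 1459.5 and 1319 against 1869, 2095 and 1724 (log2 fold change -0.40, adjusted p = 0.299 by edgeR). *Irf1*, another interferon-induced factor, overlapped, with a log2 fold change of -0.049, and -0.35 without WT replicate 2 (adjusted p = 0.193 by edgeR). With WT replicate 2 left out, edgeR called 0 of the 24, with 9 under 0.05 before adjustment, against 2675 of all 13728 genes tested. The median log2 fold change was 0.017 with all libraries and 0.13 without it.

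The genes with the most similar pattern over the 6 libraries were ranked by the root mean square difference of log2 normalized counts, each centred on its own mean, among 11127 genes with a mean of at least 100. For *Serping1* these were *Six2* (0.107), *Gas7* (0.126) and *Sqrdl* (0.167), and for *Cfb* they were *Nebl* (0.174), *Slc9a9* (0.214) and *Smoc2* (0.230). *Cd55* was nearest to *Cldn1* (0.478) and *Folh1* (0.481), and *Cd59a* to *Prdm6* (0.474) and *Epha3* (0.484), at distances that were small beside their own SDs of 2.16 and 1.99 on the log2 scale. The nearest genes were *Adgre5* for *C3* (0.0629), *Prob1* for *C4b* (0.0845) and *Foxf2* for *C1ra* (0.0866). With 6 libraries and so many candidate genes, these distances describe the patterns only.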

How the data were processed

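RNA of 6 untreated cultures was sequenced from stranded poly(A) libraries with 75 cycles. The authors deposited raw counts of reads per gene symbol, and the submitters' processing notes name bcl2fastq 2.20.0.422, STAR 2.7.7a, HTSeq 0.13.5, DESeq2 1.26.0 and mm10. The last 5 lines of the table, which count reads outside genes or at several sites (22.2% of the table), were left out. Column names, which hold genotype and replicate, gave the culture, and groups follow the sample titles.

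Genes were filtered with filterByExpr (minimum count 10), normalized with TMM and compared between genotypes by edgeR 4.0.16 (quasi-likelihood test, two-sided) under R 4.3.3. Adjusted p-values (Benjamini-Hochberg) under 0.05 were called. Both genotypes entered 1 fit without covariates. Standard errors were obtained by dividing each log2 fold change by the root of its F statistic. DESeq2 1.42.0 and limma 3.58.1 (voom) were alternatives, with other scalings, other filters, a replicate block, sums of *Nhe6*-knockout replicates 1 and 2, and each culture left out. Scripts were tested on simulated data. Depth was 25587097 to 29126232 reads on genes per library. Labels tie each library to a replicate but not to separate litters, so p-values measure the spread between these cultures. *Nhe6*-knockout replicates 1 and 2 were by far the most similar pair, so the spread within that genotype may be understated. Limits for a count of 0 cover counting error only.

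Positions, exon lengths and transcripts came from GENCODE M21 on GRCm38, the build that mm10 names, and promoters from RefSeq. All 7 genes, genes of the written lists, near copies and the 3 genes with the most similar pattern may be named. The genes and lists were chosen with earlier results of these data known. Results of some genes, the check of the targeted gene included, are not reported here.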

Additional observations from a re-analysis of the deposited data

How the results depend on the processing

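The number of genes with an adjusted p under 0.05, 9 with edgeR and all libraries, was 21 without a filter beyond 1 count, 21 with at least 10 counts in every library, 627 with DESeq2 and 1 with *Nhe6*-knockout replicates 1 and 2 summed. With each culture left out in turn it lay between 0 (without *Nhe6*-knockout replicate 3) and 395 (without wildtype replicate 2). Of the 7 complement genes, 4 were called with DESeq2 in place of 0, and with each culture left out 0 to 1 were, *Serping1* being called without wildtype replicate 2. Leaving out a culture gave 0 to 2 of the other complement genes, and DESeq2 called 3 of the upstream signalling genes. The cause of these changes was not tested.

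The log2 fold change of *C3* turned to -0.0025 and -0.087 without *Nhe6*-knockout replicate 1 or 2, to -0.021 and -0.032 without wildtype replicate 1 or 3, and to -0.039 with *Nhe6*-knockout replicates 1 and 2 summed. *C4b* turned to 0.011 with limma-voom and to 0.096 without wildtype replicate 1, and *C1ra* to -0.26 without wildtype replicate 2. With each culture left out the values lay between -0.087 and 0.23 for *C3*, between -0.78 and 0.096 for *C4b* and between -0.26 and 0.57 for *C1ra*. *Cfb*, *Serping1*, *Cd55* and *Cd59a* stayed below 0 in each of the 14 alternatives. Same-numbered libraries did not deviate together in every pair (correlations of 0.198, -0.204 and 0.0937 across genes). With 3 libraries per genotype and wildtype replicate 2 far apart, these correlations cannot tell whether the numbers pair the samples. The replicate block gave 2 genes called in all and 0 of the 7. Depth limits the low counts of *Cd55* and *Cd59a*, which were at most 68 reads in any *Nhe6*-knockout library.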
